A study of Mus musculus with 18 samples.

Results

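DNA replication genes of the lung were followed in mice gavaged for 28 days with the 4PAH-Mix, a defined mixture of the polycyclic aromatic hydrocarbons benzo[a]pyrene (BaP), benz[a]anthracene, benzo[b]fluoranthene and chrysene. The members are 47 genes of the machinery that copies DNA, from origin recognition to the packing of new DNA into chromatin, out of 20660 genes that the array's probes could be named for. The list was drawn up by what the genes do in the cell, with earlier results of these data known. Each of the 47 had at least 1 probe, 53 in all, and the probe with the highest mean intensity stands for its gene. The animals were 18 male Muta Mouse, a transgenic strain that carries a bacterial reporter gene for mutation assays, aged about 12 weeks: 5 given olive oil alone (vehicle), 4 given 12.5 (low), 5 given 25 (medium) and 4 given 50 (high) mg BaP equivalents/kg-bw/day. Lungs were taken 72 hours after the last dose. All groups shared the strain, the olive oil and the gavage. Whole lung RNA (Cy5) was hybridised, 1 mouse per 2-colour array, against a Cy3-labelled pool of RNA from 11 mouse cell lines. Each value below is therefore a log2 ratio of lung to reference RNA, and a log2 change is the difference between the mean ratios of 2 groups.

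A cell copies its DNA once per division. Origins are bound by the origin recognition complex, and Cdc6 and Cdt1 load the MCM helicase there, a step that geminin (Gmnn) blocks by holding Cdt1. Cdc45 and the GINS complex then turn the MCM ring into an active helicase, primase starts each strand, polymerases delta and epsilon extend it on the PCNA clamp, and ribonucleotide reductase (Rrm1 and Rrm2) supplies the nucleotides. Most of these genes are transcribed ahead of S phase under E2F transcription factors, and the adult lung holds few dividing cells. In whole tissue, more cells that copy DNA and more RNA per such cell cannot be told apart.

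Windows of the 250 bases before the transcription start (RefSeq, build GRCm38.p6) were at hand for 39 of the 47 members, and 33 of these had a single window. Both strands were searched for TTTGGCGC, TTTCCCGC, TTTCGCGC and TTTGCCGC, forms of the E2F core site, and for CCAAT, the box bound by the NF-Y factor. None of the E2F words holds a CCAAT, but on opposite strands the E2F words can overlap each other. An E2F word lay in a window of 9 of 39 members (23.1%, or 19.1% of their 47 windows) and in 1.86% of all 32851 windows. CCAAT lay in a window of 24 of 39 members (53.2% of the 47 windows) and in 33.8% of all windows. The 5 members first printed here rose at the high dose, Mcm6 holds the most E2F words, and Tk1 had the lowest change, a choice made after their values were seen. Each runs 5′ to 3′ on the gene's strand up to the start, with the matches in capitals. The positions are Rrm1 chr7:102441445-102441694 (+), Rrm2 chr12:24708004-24708253 (+), Mcm2 chr6:88898781-88899030 (-), Rfc3 chr5:151651209-151651458 (-), Rpa2 chr4:132768110-132768359 (+), Mcm6 chr1:128359706-128359955 (-) and Tk1 chr11:117826015-117826264 (-).
Rrm1: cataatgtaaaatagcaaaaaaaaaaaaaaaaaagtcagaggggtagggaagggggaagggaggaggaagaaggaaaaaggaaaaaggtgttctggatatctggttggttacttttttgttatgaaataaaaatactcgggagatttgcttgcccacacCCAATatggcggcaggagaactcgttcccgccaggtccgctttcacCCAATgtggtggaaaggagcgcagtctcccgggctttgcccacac
Rrm2: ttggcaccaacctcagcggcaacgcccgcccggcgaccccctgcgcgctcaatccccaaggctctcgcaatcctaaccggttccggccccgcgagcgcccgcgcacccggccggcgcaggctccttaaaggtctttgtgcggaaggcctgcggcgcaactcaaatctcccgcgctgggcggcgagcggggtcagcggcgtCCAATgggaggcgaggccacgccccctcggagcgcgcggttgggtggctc
Mcm2: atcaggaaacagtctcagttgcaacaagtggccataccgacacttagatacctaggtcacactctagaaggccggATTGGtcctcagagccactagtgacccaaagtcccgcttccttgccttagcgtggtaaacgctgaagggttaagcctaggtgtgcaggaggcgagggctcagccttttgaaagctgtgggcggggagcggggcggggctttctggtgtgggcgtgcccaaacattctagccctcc
Rfc3: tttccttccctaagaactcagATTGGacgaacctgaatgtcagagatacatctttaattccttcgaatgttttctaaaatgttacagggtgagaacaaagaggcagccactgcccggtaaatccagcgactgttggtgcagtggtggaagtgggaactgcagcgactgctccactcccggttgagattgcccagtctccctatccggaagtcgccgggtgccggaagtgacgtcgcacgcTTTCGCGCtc
Rpa2: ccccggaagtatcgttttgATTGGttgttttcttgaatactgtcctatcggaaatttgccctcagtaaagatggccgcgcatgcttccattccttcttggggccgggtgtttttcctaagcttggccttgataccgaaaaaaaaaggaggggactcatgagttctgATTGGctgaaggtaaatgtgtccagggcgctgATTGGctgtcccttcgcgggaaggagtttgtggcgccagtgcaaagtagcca
Mcm6: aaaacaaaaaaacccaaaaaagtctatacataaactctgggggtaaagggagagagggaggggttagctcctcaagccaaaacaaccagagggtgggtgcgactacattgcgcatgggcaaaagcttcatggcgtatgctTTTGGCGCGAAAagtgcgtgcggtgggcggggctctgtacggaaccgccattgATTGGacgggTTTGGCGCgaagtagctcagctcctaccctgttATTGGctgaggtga
Tk1: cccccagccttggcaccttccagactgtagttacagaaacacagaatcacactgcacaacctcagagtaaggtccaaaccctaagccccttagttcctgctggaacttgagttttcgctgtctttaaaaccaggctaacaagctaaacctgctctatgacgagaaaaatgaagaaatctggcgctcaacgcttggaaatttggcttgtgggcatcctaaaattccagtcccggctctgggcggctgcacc

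In these windows Rrm1 holds CCAAT from 91 and from 45 bases before the start, and Rrm2 holds it from 50 bases before. In Mcm2, Rfc3, Rpa2 and Mcm6 the box reads as ATTGG, its form on the opposite strand. Of the 7 members past the adjusted p at the high dose that have a window, Rfc3 alone holds an E2F word, TTTCGCGC, and 6 hold CCAAT. Mcm6 holds 3 E2F words, 2 of which overlap. A match is a string of letters in this window and nothing was measured on it here.

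Most members had less signal in lung than in the pooled cell lines. In the vehicle mice 46 of the 47 members had a mean ratio below 0, with Orc4 at 0.07 the exception and Rrm2 lowest at -4.12, followed by Cdt1 at -3.83 and Gins1 at -3.28. The Cy5 signal was well above background on all 18 arrays for 43 members. It was not so for Orc1 on any array, for Cdc6 on 15 of 18 arrays, and for Cdc45 and Pola2 on some, so Orc1 and Cdc6 enter the counts but are given no change of their own. The labelled tissue was borne out by the surfactant genes Sftpc and Sftpb, at 7.29 and 6.56 above the reference in vehicle mice. In Cy5, 51.5% to 61.1% of an array's probes were well above background, and precision is limited by how many mice there are. All 4 groups were present on each of the 3 slides, but the column a mouse took on the slide went with its dose, so those cannot be told apart.

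One vehicle animal, mouse 3, stood apart from the other 4 in these genes. It had the highest ratio of the 5 vehicle mice for 39 of the 47 members (83%), while over 13457 named genes it was highest for 25.3%. The mean change of the 47 members against the vehicle mean was 0.27 in mouse 3 and -0.02, -0.07, -0.11 and -0.07 in vehicle mice 1, 2, 4 and 5. Its mean also lay above that of each of the 13 dosed mice. Mouse 3 was also highest for the mean of the 25 mitosis genes, with 0.23 in mouse 3 and at most -0.02 in the other vehicle mice, and 24 of the 25 above the vehicle mean. B cell markers were low in vehicle mice 3 and 4, at -0.35 and -0.46 with 0 of 8 above the vehicle mean, against 0.04 to 0.38 in mice 1, 2 and 5. NK cell markers were low in the same pair, at -0.31 and -0.49 with 0 of 6 above, against 0.17 to 0.45. Ciliated cell markers were low in this pair too, at -0.15 and -0.49 against 0.10 to 0.28 in mice 1, 2 and 5. Mice 3 and 4 are the 2 vehicle mice of slide 2, and the part of the slide in these differences was not tested. Endothelial markers were low in mouse 3 alone among the vehicle mice, at -0.32 with 0 of 6 above the vehicle mean, against 0.04 to 0.11 in the other 4. The array of mouse 3 had 53% of its probes well above background in Cy5 and a median Spearman correlation of 0.824 with the other arrays, where the 18 arrays spanned 0.82 to 0.847. Its median Cy5 signal of 110 was the lowest of the 18 arrays, which spanned 110 to 142, and the part of this was not tested. Nothing in the labels sets it apart, so it was kept, and results are given with and without it. The part of these cell markers in the members' values was not tested.

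Against the vehicle, more members had a change above 0 at each higher dose in the main fit, and the changes were small. At the low dose 32 of 47 had a change above 0 (51% of all 55681 probes did) with a median of 0.05. At the medium dose it was 39 of 47 (51.3% of all probes) with a median of 0.16. At the high dose it was 42 of 47 with a median of 0.21, a fold of 1.15. There 50.8% of all probes and 57% of named genes well above background, 1 probe each, were above 0. With the arrays also scaled to a common spread it was 34 of 47 and 0.11, and with each array only centred on its median it was 45 of 47 and 0.39. The median over all probes was 0.003, 0.004 and 0.003 at the 3 doses. The mean of the 47 members in each mouse ran from -0.03 to 0.12 at the low dose, from 0.15 to 0.18 at the medium dose and from 0.21 to 0.22 at the high dose, where the 4 mice differed by an SD of 0.006. Without vehicle mouse 3 the vehicle range ends at -0.02, below each medium and high dose mouse. With it the vehicle range covers all doses. Within slides, where each dose was set against the vehicle mice of the same slide, the median high dose change was 0.27 on slide 1, 0.13 on slide 2, which holds mouse 3, and 0.28 on slide 3. With the slide as a block the median was 0.22, and 11 members passed the adjusted p at the high dose and 8 at the medium dose, where 9 and 5 did without it. Over all probes the shares passing in either direction rose too, from 4.18% to 5.16% and from 3.54% to 4.74%.

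**Figure D1:**
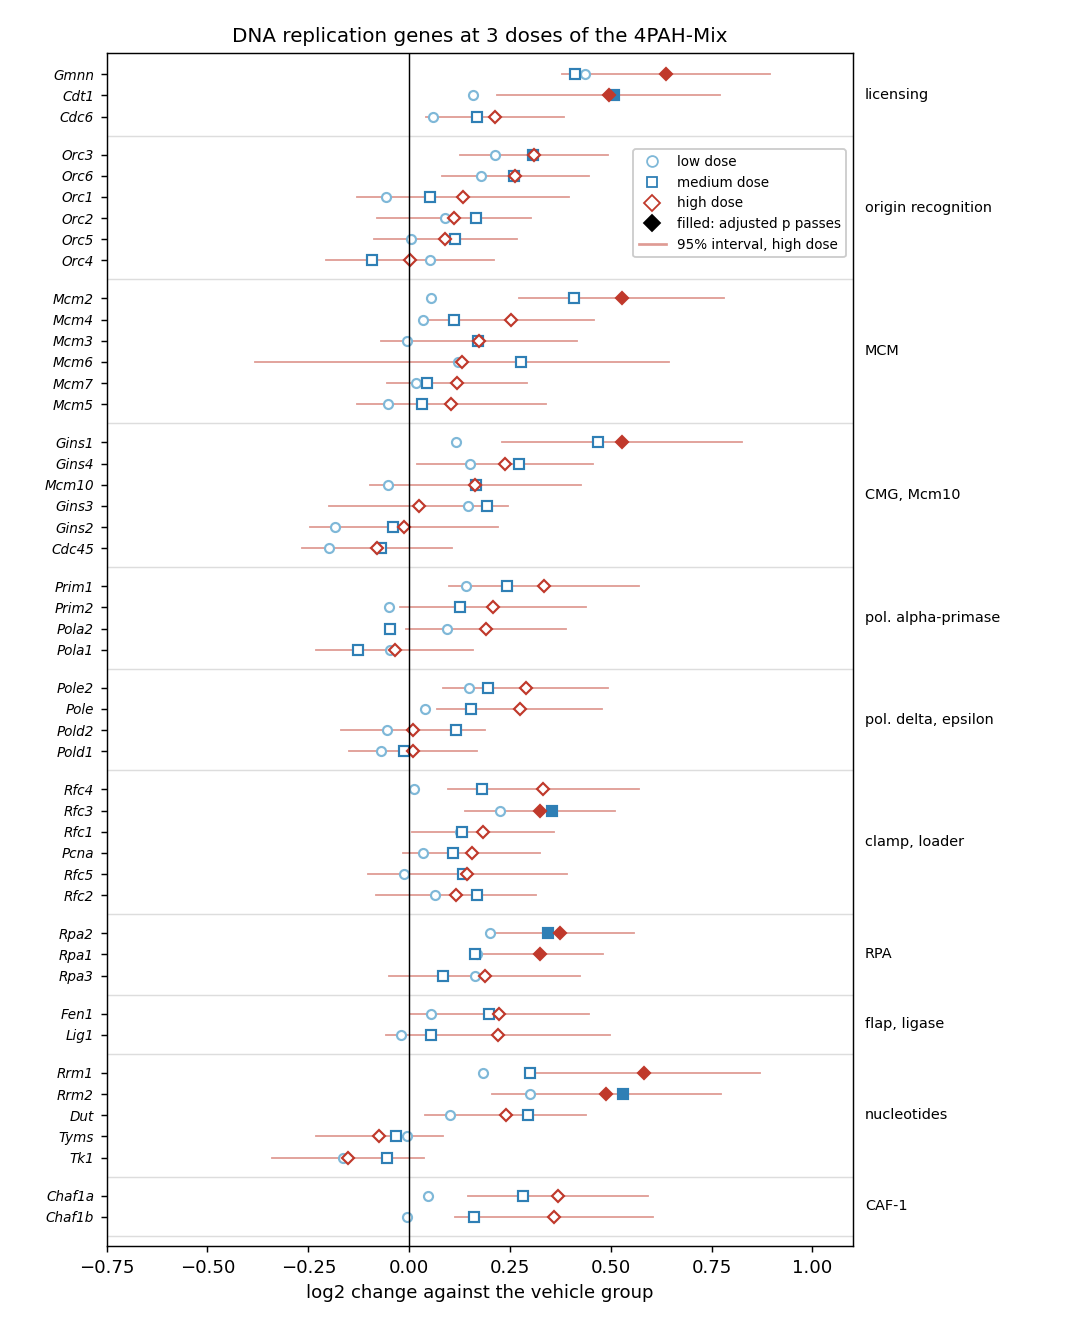
Log2 change against the vehicle group (x axis) of each of the 47 members (y axis, by role, highest at the top of each role) at the low (circles), medium (squares) and high dose (diamonds), with 4 to 5 mice a group. Filled symbols passed an adjusted p of 0.05 and lines are 95% intervals at the high dose. Nearly all diamonds lie right of 0, 9 are filled, and only Gmnn lies past a fold of 1.5.

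A member was called where limma's Benjamini-Hochberg adjusted p, over all 55681 probes, was 0.05 or less and the fold at least 1.5. At the high dose 1 member, Gmnn, was called higher and 0 lower, where 0.399% of all probes were called higher and 0.805% lower. By the adjusted p alone, 9 of 47 members passed (19.1%), all higher, where 1.8% of all probes passed as higher and 2.38% as lower. Among the 26189 probes well above background on all arrays, 3.53% passed as higher. Of the 13460 named genes well above background on all arrays, taken like the members with 1 probe each, 626 passed as higher. At 25 mg 0 members were called (0.278% of all probes were called higher) and 5 passed the adjusted p, Cdt1, Orc3, Rfc3, Rpa2 and Rrm2, all higher (1.64% of all probes). At the low dose 0 members were called and 0 passed the adjusted p in limma's fit (0.0647% and 0.0952% of all probes, higher), and 7 had an unadjusted p under 0.05 (8.01% of all probes). In the straight-line fit over dose 0 members were called (0.372% of all probes were called higher) and 8 passed the adjusted p, all higher (1.64% of all probes). These were Cdt1, Chaf1a, Gins1, Gmnn, Mcm2, Rpa1, Rpa2 and Rrm1. The 3 doses share the vehicle mice, so mouse 3 enters each of these counts.

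Without vehicle mouse 3, a setting looked at closely after its values were seen, more members passed. At the high dose 6 members were called higher (0.388% of all probes) and 19 passed the adjusted p as higher (1.43% of all probes), with a median change of 0.29. The 6 were Gins1, Gmnn, Rrm1, Rrm2, Mcm2 and Cdt1, and the 19 held all 9 of the full fit. Of the medium dose changes 12 passed (1.41% of all probes), among them all 5 of the full fit, and 3 were called (0.296%). At the low dose 0 passed in limma's fit (0.0682% of all probes, with 0.0575% called). In the straight-line fit 18 passed (1.16%) and 4 were called (0.35%). The high dose count also moved with other animals: 2 passed without high dose mouse 17, 3 without high dose mouse 16, and 5 without vehicle mouse 1, 2, 4 or 5 or high dose mouse 18. The share of all probes passing in either direction fell as well, from 4.18% with all mice to 2.5%, 2.33% and 2.97% to 3.59%. The medium dose count was 1 without vehicle mouse 1, 2 or 4 and 2 without vehicle mouse 5 or medium dose mouse 11, 12 or 14. In these fits 2.23% to 2.77% of all probes passed, against 3.54% with all mice. The straight-line count was 5 without vehicle mouse 1, 2 or 4 or high dose mouse 17 (2.65% to 3.08% of all probes, against 3.9%).

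**Figure D2:**
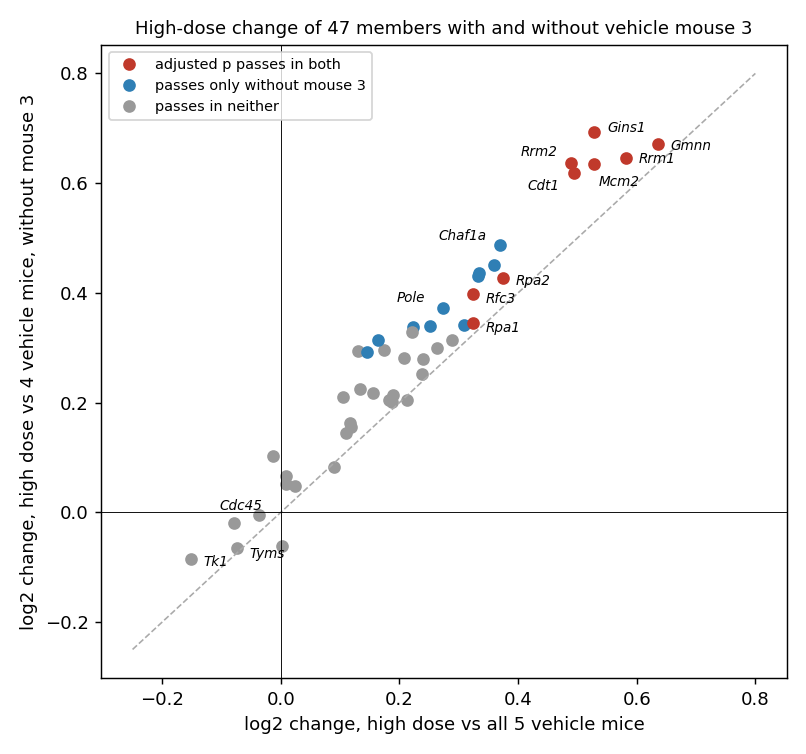
Log2 change of the 47 members at the high dose against all 5 vehicle mice (x axis) and against 4 vehicle mice without mouse 3 (y axis), with the dashed line where both are equal. The points lie mostly above the line, 9 pass the adjusted p both ways (red) and 10 only without mouse 3 (blue).

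Of the licensing factors, Gmnn, which keeps an origin from being licensed again, rose most. Its ratios were -1.52, -1.83, -1.48, -1.90 and -1.37 in the vehicle mice and -0.99, -1.02, -0.999 and -0.93 in the high dose mice. All 4 high dose mice lay above all 5 vehicle mice, including mouse 3, and the change was 0.64 ± 0.12 (SE; fold 1.55, adjusted p 0.00406; exact permutation p 0.00794, two-sided, the smallest 4 against 5 mice can give). Such a p arises only where the 2 groups do not overlap, so it is not separate from that. Over all probes 3.78% had every high dose mouse above every vehicle mouse. At the low and medium dose Gmnn changed by 0.44 and 0.41 (adjusted p 0.235 and 0.055). Its call rests close to the fold limit, since the change was 0.58 without vehicle mouse 2 and 0.57 without vehicle mouse 4.

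Cdt1, the loader that geminin holds, rose by 0.49 ± 0.13 at the high dose and by 0.51 ± 0.13 at the medium dose (adjusted p 0.0367 and 0.025). Its ratios were -3.82, -4.005, -3.34, -3.88 and -4.10 in the vehicle mice and -3.29, -3.29, -3.48 and -3.28 in the high dose mice. The groups overlap only through vehicle mouse 3 at -3.34, and without it the high dose change was 0.62 (adjusted p 0.00358). Cdc6, which loads the helicase with Cdt1, was not well above background in any vehicle mouse. Its ratios ran from -1.94 to -1.59 in vehicle and from -1.64 to -1.46 in high dose mice, and the groups overlap.

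Of the origin recognition complex 0 of 6 genes passed the adjusted p at the high dose in limma's fit, and Orc3 alone passed at that dose without vehicle mouse 3 (0.34, adjusted p 0.0466). Orc3 was 0.31 higher at both upper doses and passed the adjusted p at 25 mg (0.0427) but not at 50 mg (0.0507). Its ratios were -0.75 to -0.54 in the vehicle mice and -0.43 to -0.28 in the high dose mice, which do not overlap. A further, dimmer probe for Orc3 had a change of -0.05 at the high dose (adjusted p 0.871), so the probes for this gene disagree. Orc6 had a change of 0.26 (adjusted p 0.1), beside 0.11 for Orc2, 0.09 for Orc5 and 0.00 for Orc4, and Orc1 was not well above background on any array.

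Among the MCM helicase subunits, which form 1 ring of 6 proteins in equal parts, 1 passed the adjusted p. Mcm2 rose by 0.53 ± 0.12 at the high dose (adjusted p 0.0148), while Mcm4 had a change of 0.25, Mcm3 of 0.17, Mcm6 of 0.13, Mcm7 of 0.12 and Mcm5 of 0.10, none past the adjusted p. Without vehicle mouse 3 Mcm4 passed as well, at 0.34 (adjusted p 0.0372). The ratios of Mcm2 were -2.47, -2.75, -2.14, -2.87 and -2.62 in the vehicle mice and -2.19, -1.95, -2.24 and -1.79 in the high dose mice. Vehicle mouse 3 lies inside the high dose range and the other 4 vehicle mice lie below it. Whether Mcm2 changed more than the other subunits was not tested. Mcm6 varied most of all members, from -4.17 to -2.45 in the vehicle mice, and its 95% interval at the high dose ran from -0.38 to 0.64.

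Of the 6 factors that switch the helicase on, 1 passed the adjusted p at the high dose. Gins1 rose by 0.53 ± 0.14 at the high dose (adjusted p 0.0379). Its ratios were -3.39, -3.40, -2.62, -3.67 and -3.31 in the vehicle mice, -3.21 to -3.13 in the low dose mice and -2.88, -2.69, -2.82 and -2.60 in the high dose mice. Mouse 3 again matched the high dose mice, and without it the change was 0.69 (adjusted p 0.000443), the largest of the members in that fit. The other GINS subunits had changes of 0.24 (Gins4), 0.02 (Gins3) and -0.01 (Gins2), Mcm10 of 0.16 and Cdc45 of -0.08. Of these, Mcm10 passed at the high dose without mouse 3, at 0.31 (adjusted p 0.0453). At the low dose Cdc45 was the 1 member with every dosed mouse below every vehicle mouse (1.45% of all probes did so), at -0.20 with an adjusted p of 0.581.

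**Figure D3:**
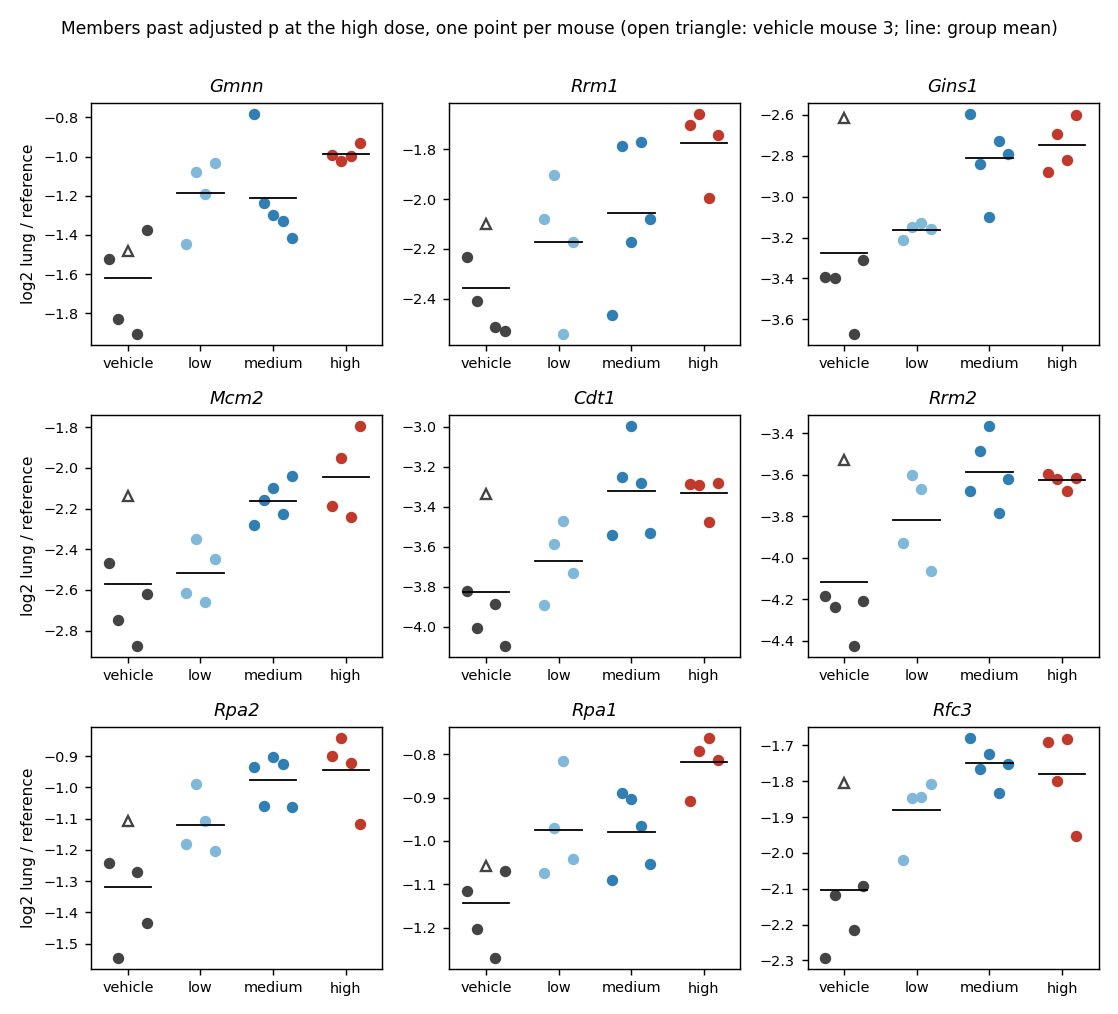
Log2 ratio of lung to reference RNA (y axis) in each mouse by dose group (x axis) for the 9 members past the adjusted p at the high dose. Points are mice, lines are group means, and the open triangle is vehicle mouse 3, which is the highest vehicle mouse in 8 of the 9 panels, Gmnn being the exception.

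Single-strand DNA is covered by the replication protein A trimer, and 2 of its 3 genes rose. Rpa2 rose by 0.37 ± 0.09 at the high dose and by 0.34 ± 0.08 at the medium dose (adjusted p 0.0159 and 0.0222). Rpa1 rose by 0.32 ± 0.07 at the high dose (adjusted p 0.0146), with vehicle ratios of -1.27 to -1.06 and high dose ratios of -0.91 to -0.76, which do not overlap even with mouse 3 kept. Its exact permutation p was 0.00794, again the smallest possible and again not separate from the lack of overlap. Rpa3 had a change of 0.19 (adjusted p 0.477).

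The DNA polymerase and primase genes did not pass the adjusted p at any dose with all mice in the fit. Of the primase genes Prim1 had a change of 0.33 (adjusted p 0.109) and Prim2 of 0.21, beside 0.19 for Pola2 and -0.04 for Pola1. Without vehicle mouse 3 Prim1 passed at the high dose, at 0.44 (adjusted p 0.015), and at the medium dose (adjusted p 0.0484). For the extending polymerases the high dose changes were 0.29 (Pole2), 0.27 (Pole), 0.01 (Pold1) and 0.01 (Pold2). Pole passed at the high dose without mouse 3, at 0.37 (adjusted p 0.0112), while Pole2 did not (adjusted p 0.117). In the medium dose group Pole2 did not overlap the vehicle mice, with -2.22 to -2.10 against -2.53 to -2.25, at an adjusted p of 0.316. Of the clamp and its loader, Rfc3 rose by 0.35 ± 0.08 at 25 and by 0.32 ± 0.09 at 50 mg (adjusted p 0.0208 and 0.042). PCNA, the clamp, had a change of 0.15 (95% interval -0.01 to 0.32). Rfc4 had 0.33 (adjusted p 0.117) on its brightest probe but -0.07 on another, so these probes disagree too. Fen1 and Lig1, which trim and seal the lagging strand, both had a change of 0.22, with an adjusted p of 0.311 and 0.47. Without mouse 3 Fen1 (0.34, adjusted p 0.0233), Rfc4 (0.43, adjusted p 0.0202) and Rfc5 (0.29, adjusted p 0.0311) passed at the high dose.

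The nucleotide supply genes spanned changes from 0.58 to -0.15. Rrm1, the large subunit of ribonucleotide reductase, rose by 0.58 ± 0.14 at the high dose (fold 1.496, just under the limit; adjusted p 0.018). Its ratios were -2.23, -2.41, -2.10, -2.51 and -2.53 in the vehicle mice and -1.70, -1.66, -1.99 and -1.74 in the high dose mice, which do not overlap. Rrm2, the small subunit, rose by 0.53 ± 0.13 at 25 and by 0.49 ± 0.14 at 50 mg (adjusted p 0.0228 and 0.0445). Its 4 high dose mice lay between -3.68 and -3.60 and vehicle mice 1, 2, 4 and 5 between -4.42 and -4.19, with vehicle mouse 3 above them all at -3.53. Dut, which clears dUTP, had a change of 0.24 (adjusted p 0.203). Tk1, the thymidine salvage kinase, had the lowest change of all members at -0.15 (95% interval -0.34 to 0.04), which was -0.08 without mouse 3 and 0.08 with median centring. Tyms, thymidylate synthase, had -0.07 (95% interval -0.23 to 0.08), and neither passed the adjusted p with or without mouse 3.

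The chromatin assembly factor genes, whose products load histones behind the fork, had like changes. Chaf1a had 0.37 at the high dose (adjusted p 0.0557) and passed in the straight-line fit, with a fitted change of 0.40 from vehicle to the highest dose (adjusted p 0.0286). Without mouse 3 both passed at the high dose, Chaf1a at 0.49 (adjusted p 0.00145) and Chaf1b at 0.45 (adjusted p 0.0258). With all mice Chaf1b had 0.36 (adjusted p 0.1), and a dimmer probe for it rose by 0.49 (adjusted p 0.0367).

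Counted by mouse, 6 of 47 members (12.8%) had every high dose mouse above every vehicle mouse, where 3.78% of all probes did. They were Dut, Gmnn, Orc3, Rfc1, Rpa1 and Rrm1. In the medium dose group 3 members did so, Gins4, Pole2 and Rpa2 (2.31% of all probes), and at the low dose 0 (1.36%). Without vehicle mouse 3 these counts were 25 at the high dose (5.12% of all probes), 18 at the medium dose (3.33%) and 6 at the low dose (2.1%). With a vehicle mouse taken out such counts can only rise or stay, and this mouse was the highest for most members. Set against the low dose directly, 44 of 47 members were higher at the high dose (49.9% of all probes) with a median of 0.15, but 0 passed the adjusted p in limma's fit (0.0467% of all probes passed as higher, 0.0359% with the fold) and 9 had an unadjusted p under 0.05 (6.71% of all probes).

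Genes of the wider pathway were read from further lists, beside the 8.25% of named genes well above background that passed the adjusted p at the high dose in either direction. Of 40 other replication genes, 3 rose and 1 fell by the adjusted p at the high dose (10%, near that share), with a median change of 0.09. Rnaseh2b, a subunit of the enzyme that removes ribonucleotides from DNA, rose by 0.58 (adjusted p 0.000293), Tk2, the mitochondrial thymidine kinase, by 0.41 and Tipin, a fork protection factor, by 0.45, and Mcmbp, an MCM-binding protein, fell by 0.33. Of 25 mitosis genes 0 passed at the high dose in limma's fit, with 21 above 0 (50.8% of all probes) and a median of 0.12. There 4 had an unadjusted p under 0.05, where 15.7% of all probes had one. At the low dose 23 of the 25 were above 0 (51% of all probes) with a median of 0.13. At 25 mg all 25 were above 0 (51.3% of all probes) with a median of 0.24. Birc5 (survivin) was called there with 0.66 (adjusted p 0.0134), where 0.278% of all probes were called higher. The mean of the list was 0.54 in medium dose mouse 13 and 0.15 to 0.22 in the other medium dose mice. Of 29 E2F-RB and G1-S regulators 6 rose, led by Cdkn1a, the p53-driven inhibitor of S phase entry, at 2.47 (adjusted p 2.08e-10), and by Ccnd1 (cyclin D1) at 0.65. Ccnd2, Rb1, Lin9 and Tfdp1 were the others, and E2f1 had a change of 0.00.

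Of 11 translesion synthesis genes, which copy past damaged bases, 2 were called higher at the high dose, Polk at 0.96 (adjusted p 5.93e-05) and Rev1 at 0.63 (adjusted p 0.000237). Among the fork checkpoint and repair genes Wee1, which holds cells before mitosis, was called higher at 0.94 (adjusted p 1.75e-05). Among 14 p53 targets 11 were called higher with a median of 1.23. By the same rule, adjusted p and fold, 0.399% of all probes were called higher at the high dose. Gdf15, a stress-induced cytokine, rose most at 2.88, and with Cdkn1a and Gdf15 stood Aen, Bax, Ccng1, Mdm2, Phlda3, Plk2, Sesn2, Trp53inp1 and Zmat3. The regulator and p53 lists share Cdkn1a, and all lists are described by their counts alone.

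**Figure D4:**
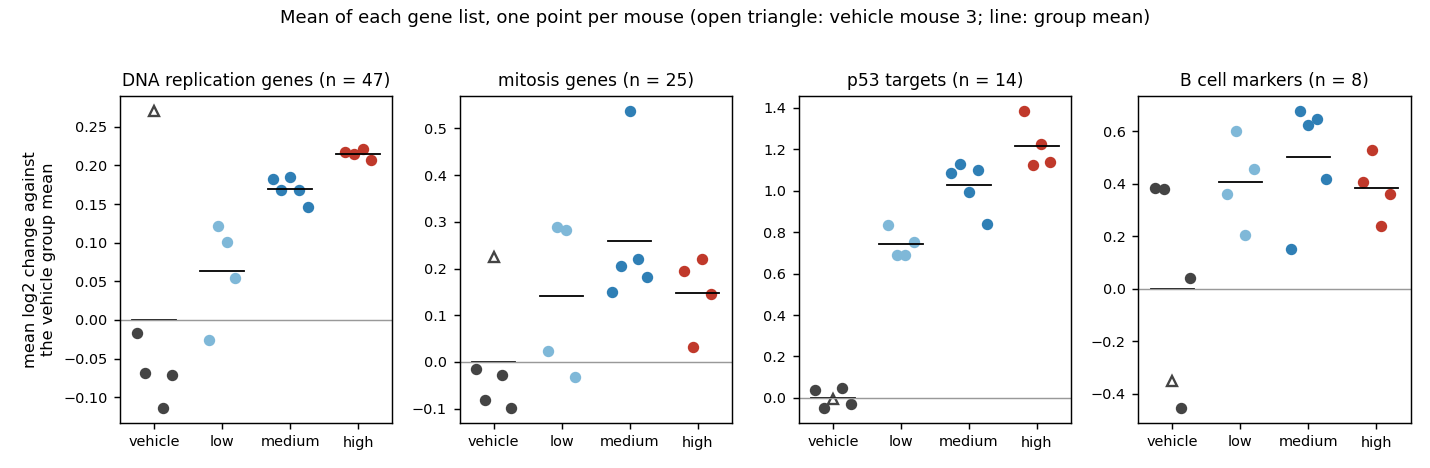
Mean log2 change against the vehicle mean (y axis) in each mouse by dose group (x axis) over the 47 members, 25 mitosis genes, 14 p53 targets and 8 B cell markers. Lines are group means. Vehicle mouse 3 (open triangle) lies above all other mice for the members and with the other vehicle mice for the p53 targets, where the dosed groups lie apart from the vehicle.

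Markers of some blood and lung cell types differed from the vehicle. B cell markers, which mark cells that can divide in lymphoid tissue, had a median change of 0.44 at the high dose with 7 of 8 above 0 and 0 past the adjusted p in limma's fit (6 at an unadjusted p under 0.05, where 15.7% of all probes had one). At 25 mg 3 of them rose (Blk, Cd79b and Ms4a1), and the mean of the list ran from -0.46 to 0.38 in vehicle and from 0.24 to 0.53 in high dose mice. All 6 NK cell markers were lower with a median of -0.46, and Gzma, Klra4 and Prf1 passed. Of the 6 fibroblast markers Col1a1, Col1a2 and Dcn fell, with 4 of the list below 0 and 2 above. Of the 6 endothelial markers Pecam1 rose by 0.74 and Kdr and Ednrb fell, with 4 below 0 and 2 above. Of the 5 plasma cell markers Jchain and Xbp1 fell, with 4 below 0 and 1 above. Abca3 of the 8 alveolar type 2 cell markers fell, with 6 below 0 and 2 above. Cd1d1 of the 5 thymocyte markers fell too, but 3 of that list were above 0 and its median was 0.05. None of the 6 neutrophil, 8 alveolar macrophage, 7 T cell, 6 ciliated, 3 club or 5 erythroid markers passed at the high dose. The 5 alveolar type 1 cell markers did not pass either, but all 5 were below 0 at each dose. Their high dose median was -0.23, and 3 had an unadjusted p under 0.05 there (15.7% of all probes). The part of these changes in the members' values was not tested.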

How the data were processed

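Lung RNA of 18 mice was analysed, 5 vehicle, 4 low, 5 medium and 4 high dose animals, 1 array each. The authors deposited, per array, what the scanner software wrote (Feature Extraction 11.0.1.1 per the file headers), with median signal intensities of Cy5 (lung) and Cy3 (reference), which are neither background-subtracted nor normalized, and a log10 ratio per spot made by that software. They also deposited a table of normalized log2 ratios of Cy5 over Cy3, used as an alternative. Dyes were not swapped, so a dye effect on a probe stays in its ratio and cancels between groups.

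With no background subtraction, median intensities were turned into log2 ratios, normalized by loess within each array (R 4.3.3, limma 3.58.1), with outlier spots (215 to 307 per array) and control spots left out, and averaged per probe. The 4 groups were fitted together, with a straight line in dose as a further fit, and p-values were adjusted by Benjamini-Hochberg over 55681 probes. Limma stands in for the study's MAANOVA test, which was not run. A call needed both an adjusted p no higher than 0.05 and a 1.5 fold change or more. The p-values set the differences between groups against the spread between mice, which with 1 array each also holds the spread between arrays. Single genes were also compared by exact permutation of mice. Probes were named by RefSeq accession through a table of assembly GRCm38.p6 (27235 probes), and promoter windows came from the same assembly.

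The members and gene lists were chosen with earlier results of these data known. Genes named were all members called, the 10 highest and 10 lowest at the high dose, the largest change in each role, and called genes or the largest change of each pathway list. One gene of these lists is not reported here. Others (such as those passing the adjusted p alone, further members of a role, and cell markers) were named after their values were seen. On simulated data with 55595 probes, 100 were changed by 0.5 and 100 by 1 (log2) at the high dose. By the adjusted p alone, without the fold limit, the fit recovered 67% and 96% of these, and 4.12% of those passing were false. In the data 2325 probes passed at the high dose, more than were changed here, so these shares are a rough guide. Alternatives were another background correction, normalization, probe choice, filter and table of ratios, Cy5 alone, a slide block, the compared groups alone and each mouse left out. The count by adjusted p under each of these was added after seeing the data.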

Additional observations from a re-analysis of the deposited data

Results flagged for a closer look

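Vehicle mouse 3 lay apart from the other vehicle mice in the mean change of the 47 members, at 0.27 with the nearest mouse at -0.02. The gap, set against the range of the group, was 0.746, above Dixon's limit for 5 samples. The same mouse stood apart for Rrm2, with a ratio of -3.53 and the nearest vehicle mouse at -4.19. High dose mouse 18 was the lowest of its group for Cdt1 at -3.48, with the others at or above -3.29. Medium dose mouse 11 was the highest of its group for Gmnn at -0.78, with the next at -1.24. Of 48 groups of values examined, 4 (8.33%) stood apart this way, and chance gives about 1 in 20.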

How the results depend on the processing

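At the high dose the median change of the members stayed above 0 under every alternative run, from 0.11 (scale between arrays) to 0.39 (median centring in place of loess), and from 0.16 to 0.29 with 1 mouse left out. The counts depended on the processing. By the adjusted p, where 9 members passed at the high dose, 5 at the medium dose and 8 in the trend, median centring left 0, 0 and 0 (84 of all probes passed at the high dose). Scale normalization left 2, 1 and 2, with 34 of 47 members higher at the high dose. Of all probes 4.51%, 3.3% and 4.71% passed under it in either direction, against 4.18%, 3.54% and 3.9% in the main fit. Cy5 alone gave 14 in the trend (4.11% of all probes). Probes well above background gave 8 at the medium dose (8.77% of such probes) and 13 in the trend (9.62%). The slide as a block gave 8 at the medium dose (4.74% of all probes), and only the groups compared 1 there (2.73%). With the fold limit, where 1 member was called at the high dose and 0 at the medium dose and in the trend, the scanner software's ratio gave 5, 1 and 5, the authors' normalized ratios 2 at the high dose, Cy5 alone 3 in the trend, and median centring and scale 0 at the high dose. With no fold limit the counts were 9, 5 and 8. The median in the trend was 0.38 under median centring.

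With 1 mouse left out, members called ran from 0 to 6 at the high dose, 0 to 3 at the medium dose and 0 to 5 in the trend, and members at the adjusted p from 2 to 19, 1 to 12 and 5 to 18. The upper ends came from leaving out vehicle mouse 3, except the 5 called in the trend, without high dose mouse 18. Over all probes, 2.33% to 4.56%, 2.23% to 4.62% and 2.65% to 4.41% passed the adjusted p in either direction with 1 mouse left out. Gmnn was 0.77, 0.57 and 0.56 under median centring, scale and Cy5 alone and lost its call there. The low dose and the comparison of high with low dose gave 0 members under every alternative run. Causes were not tested. No paired analysis was possible because the groups share no mouse numbers, so mice were matched only by slide, as a block. With 4 or 5 mice a group, changes of 0.5 were recovered by the adjusted p alone for 67% of simulated probes at the high dose. Smaller changes can be missed.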
